A study of Mus musculus with 12 samples.

Results

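Cholesterol and fatty acids are built from cytosolic acetyl-CoA, and the 32 genes described here encode the enzymes that supply that acetyl-CoA, carry it through mevalonate and squalene to cholesterol or into fatty acids, and the proteins that control their transcription. They were chosen by gene name from the 34245 genes of the deposited table, and the list was drawn up with 2 sets of contrasts from these same libraries already known, the inhibitor against solvent at each time point and the change over time in solvent. Their values in those contrasts, and in differences between them, are therefore selected on and are given as a description. Of the 32 members, 4 supply acetyl-CoA or acetoacetyl-CoA, 8 act between mevalonate and squalene or on its prenyl branch, 10 convert squalene to cholesterol, 4 make or desaturate fatty acids, and 6 regulate the pathway or move sterols.

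The mRNA came from whole mouse blastocysts. Embryos of superovulated F1 hybrid (C57Bl6 x CBA/W) females mated with F1 males were collected at the 2-cell stage and grown in KSOM medium with amino acids until E3.5. Pools of 30 embryos were then kept for 4, 7 or 10 h in the DMSO solvent alone (DMSO groups) or in 20 µM SB220025 dissolved in DMSO (p38i groups), a small-molecule inhibitor of the stress-activated kinase p38-MAPK. Each of the 6 groups has 2 libraries, 12 in all, described by the study as biological duplicates, so every mean ± SD below has n = 2. A single inhibitor at a single dose was used, and no embryo carried a genetic change in the kinase.

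Sterol and fatty acid synthesis is controlled largely at transcription. The factors SREBP1 and SREBP2 are made as membrane proteins of the endoplasmic reticulum, where INSIG proteins hold them back through their escort SCAP while sterols are plentiful. When sterols run low, SCAP carries the SREBPs to the Golgi, proteases release their active part, and that part switches on the genes of the pathway, Insig1 and the SREBP genes among them. A preimplantation embryo in defined medium depends largely on its stores and on its own synthesis for membrane lipid.

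SREBPs bind the sterol regulatory element together with NF-Y and Sp1, so the letters of the members' promoters are shown first. RefSeq promoters on GRCm38.p6, running from 250 bases before to 50 after a start site, were found for 26 of the 32 members. Scd1, Scd2, Fdps, Fdft1, Stard4 and Sqle had no entry. The 3 motifs were searched on both strands: the core of the sterol regulatory element, TCACNCCAC (N is any base), the NF-Y motif CCAAT, and the Sp1 motif GGGCGG. Below stand the 250 bases before the start site, 5′ to 3′ on the gene's strand, of Hmgcs1, the only member with the sterol element core, and of Aacs, Mvd, Pmvk and Fasn, the 4 members with a called change. Capitals mark the motif matches on either strand (ATTGG and CCGCCC are the other strand of CCAAT and GGGCGG).
Hmgcs1 (chr13:119690101-119690350, plus strand): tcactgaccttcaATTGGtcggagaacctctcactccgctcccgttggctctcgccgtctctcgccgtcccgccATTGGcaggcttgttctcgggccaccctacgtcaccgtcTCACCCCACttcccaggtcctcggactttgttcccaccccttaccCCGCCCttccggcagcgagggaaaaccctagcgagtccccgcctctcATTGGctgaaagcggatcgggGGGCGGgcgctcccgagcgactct
Aacs (chr5:125475623-125475872, plus strand): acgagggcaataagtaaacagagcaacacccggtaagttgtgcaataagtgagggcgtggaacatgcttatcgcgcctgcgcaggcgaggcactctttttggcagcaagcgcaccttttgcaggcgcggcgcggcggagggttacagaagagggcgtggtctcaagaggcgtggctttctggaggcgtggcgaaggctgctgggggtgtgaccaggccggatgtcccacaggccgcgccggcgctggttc
Mvd (chr8:122443423-122443672, minus strand): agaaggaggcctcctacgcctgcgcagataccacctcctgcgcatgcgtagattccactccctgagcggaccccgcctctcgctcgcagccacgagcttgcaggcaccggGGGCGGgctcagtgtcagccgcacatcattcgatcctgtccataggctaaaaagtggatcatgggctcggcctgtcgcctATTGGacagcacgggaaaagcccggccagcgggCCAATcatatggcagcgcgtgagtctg
Pmvk (chr3:89454291-89454540, plus strand): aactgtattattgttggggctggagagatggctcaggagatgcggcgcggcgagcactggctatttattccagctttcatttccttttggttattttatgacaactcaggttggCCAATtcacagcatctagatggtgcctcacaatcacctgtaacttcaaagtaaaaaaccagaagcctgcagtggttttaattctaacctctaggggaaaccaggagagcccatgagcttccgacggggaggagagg
Fasn (chr11:120824548-120824797, minus strand): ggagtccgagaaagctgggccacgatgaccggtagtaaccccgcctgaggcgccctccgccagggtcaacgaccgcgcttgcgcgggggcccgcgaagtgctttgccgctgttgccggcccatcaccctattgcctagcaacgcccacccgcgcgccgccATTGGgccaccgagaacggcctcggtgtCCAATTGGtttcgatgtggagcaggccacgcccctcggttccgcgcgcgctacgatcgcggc

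The upstream stretch of Hmgcs1 held the sterol element core, 3 NF-Y motifs and 2 Sp1 motifs. Mvd had 2 NF-Y motifs and 1 Sp1 motif, Fasn had 3 NF-Y motifs of which a pair overlap, and the Pmvk promoter, the first of the gene's 2 entries, had 1 NF-Y motif. The Aacs promoter held none of the 3 motifs. Over the full promoters, 22 of the 26 member genes had at least 1 NF-Y motif (84.6%), against 41.1% of the 27025 genes in the RefSeq table. For the Sp1 motif the share was 21 of 26 (80.8%), against 38.2% of genes. The sterol element core was found in 1 of 26 (3.85%), against 1.44% of genes. The genes of the RefSeq table were taken whether or not they were expressed in these embryos, so they are not matched to the members. These matches describe letters and were not tested. A degenerate element that differs from this core is not seen by the search.

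All 32 members were measured at 1 RPKM or more (reads scaled to the length of the gene and the size of the library) in every library, so each passed the filter of at least 1 RPKM in at least 2 libraries of a comparison. Their mean level over the 12 libraries ran from 1.99 RPKM for Acaca to 188 RPKM for Scd2, and 24 of the 32 averaged at least 10 RPKM. The highest after Scd2 were Scd1 (183), Pmvk (147), Acly (126) and Ebp (101). Over the libraries, the range of each member overlapped that of its neighbour in this order, as with Scd2 (144 to 251) and Scd1 (135 to 241), except between Stard4 (lowest value 14.6) and Sc5d (highest value 14.3). At the low end stood Idi1 (2.64), Insig2 (3.47) and Ggps1 (4.10), beside Acaca.

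The libraries held 11242313 to 24457312 reads in genes, and the smallest, p38i 7h replicate 1, had a read in 14058 genes against 16400 to 17702 in the others. The log2 values of the 2 libraries of a group correlated across genes with r from 0.951 (p38i 7h) to 0.989 (DMSO 10h). Blastocyst markers were present: Krt18 and Cdx2 of the trophectoderm at no less than 909 and 144 RPKM, Pou5f1 and Nanog of the epiblast at no less than 350 and 96.8 RPKM, and Gata6 of the primitive endoderm at no less than 80.9 RPKM. Elf5 and Sox7 stayed under 1 RPKM and Gata4 and Sox17 under 5 RPKM in every library. Cumulus, granulosa and blood markers (10 genes) never passed 0.837 RPKM. Of the 28 markers, 16 were tested and 0 passed in limma in any p38i contrast, with log2 fold changes from -0.70 to 0.25. At an unadjusted p under 0.05 were 3, 3 and 6 of them at 4, 7 and 10 h. The same held for 1016 of 10781, 3102 of 10940 and 2172 of 10959 genes. Summed over a list, trophectoderm markers were higher in p38i at 4 h (1911 to 1954 RPKM against 1735 to 1889 in DMSO). Primitive endoderm markers were lower at 7 h (91.8 to 94.2 against 116 to 142) and higher at 10 h (128 to 130.1 against 120.3 to 124), and epiblast markers were lower at 10 h (556 to 585 against 618 to 624). Few genes carry these sums. Gata6 (80.9 to 129 RPKM) makes most of the primitive endoderm sum, with Pdgfra next at no more than 10.3 RPKM. Krt18 and Krt8 weigh most in the trophectoderm sum and Pou5f1 in the epiblast sum. The paper also places GATA6, together with NANOG, in uncommitted inner cells. The part of the summed shifts in the members' values was not tested. In whole embryos, fewer cells of a type and less RNA per cell cannot be told apart.

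At 4 h the set stood higher in p38i embryos at nearly every step of the pathway. Of the 32 members, 30 had a positive log2 fold change, with a median of 0.52, against 60.0% of all genes and a median of 0.07. In 24 members both p38i libraries lay above both DMSO libraries, a pattern seen in 26.8% of all genes, and in 1 member, Insig2, both lay below, against 13.7%. All 8 genes between mevalonate and squalene and all 10 between squalene and cholesterol were among the 24. Mvd, Aacs and Fasn passed an adjusted p of 0.05 (limma with a mean-variance trend, Benjamini-Hochberg over all genes), 3 of 32 beside 0.909% of all genes. Members were selected on this contrast, so nothing is read from the comparison with the background.

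At 7 h the picture was mixed. The median log2 fold change of the members was 0.19 with 20 of 32 positive, against -0.14 and 40.1% for all genes. When the libraries were centred on their medians, which moved the all-gene median to 0.05, the member median became 0.39 and 28 were positive. It was 0.083 without DMSO 7h replicate 1, 0.32 without DMSO 7h replicate 2, 0.12 without p38i 7h replicate 2, and 0.26 with 24 positive without p38i 7h replicate 1, the shallowest library. Both p38i libraries lay above both DMSO libraries in 14 members (23.0% of all genes) and below in 7 (38.7%). Pmvk alone passed, 1 of 32 beside 2.13% of all genes. At 10 h the median was 0.11 (all genes -0.02), and 22 of 32 were positive against 45.7% of all genes. Both p38i libraries lay above in 7 members (22.6% of all genes) and below in 2 (29.6%). Limma called 0 beside 0.803% of all genes. At an unadjusted p under 0.05 were 2 members and 2172 of 10959 genes. Voom on recovered reads called 0 members and 523 of 10959 genes.

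**Figure D1:**
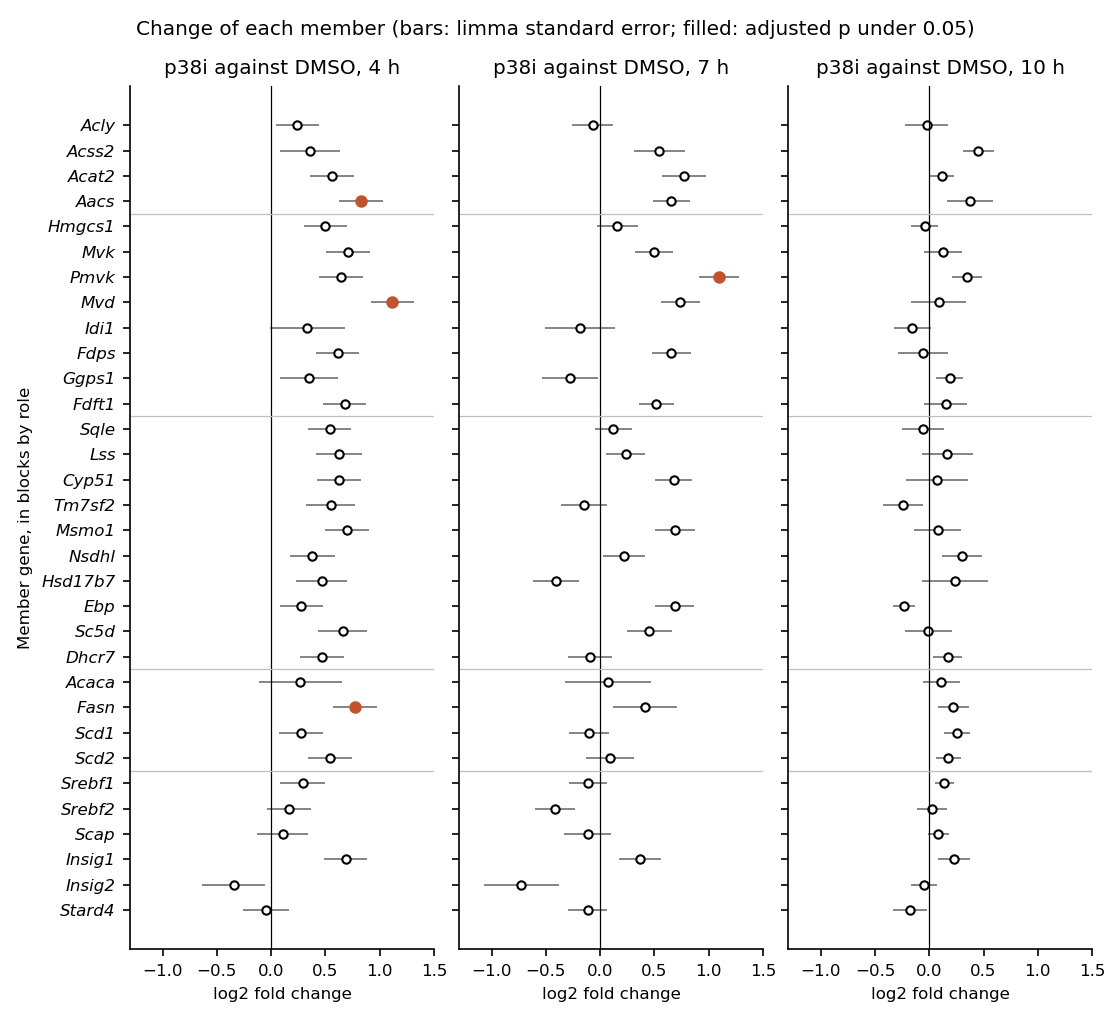
The log2 fold change of p38i over DMSO for each of the 32 members, in blocks by role from acetyl-CoA supply (top) to regulators and sterol transport (bottom), with 1 panel per time point and bars of 1 limma standard error. Filled points passed an adjusted p of 0.05 (Mvd, Aacs and Fasn at 4 h, Pmvk at 7 h), and the points lie mostly right of 0 at 4 h and close around it at 10 h.

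The 32 members together took 0.535% and 0.620% of the gene reads in the DMSO 4h libraries and 0.937% and 0.716% in the p38i 4h libraries. The shares were 0.682% and 0.759% in DMSO 7h and 0.811% and 0.912% in p38i 7h. At 10 h they were 0.639% and 0.829% in DMSO and 0.702% and 0.893% in p38i. The p38i libraries lay above the DMSO libraries at 4 and 7 h, with p38i 4h replicate 1 the highest of the 12, and the groups overlapped at 10 h. Long and abundant transcripts weigh most in this share.

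**Figure D2:**
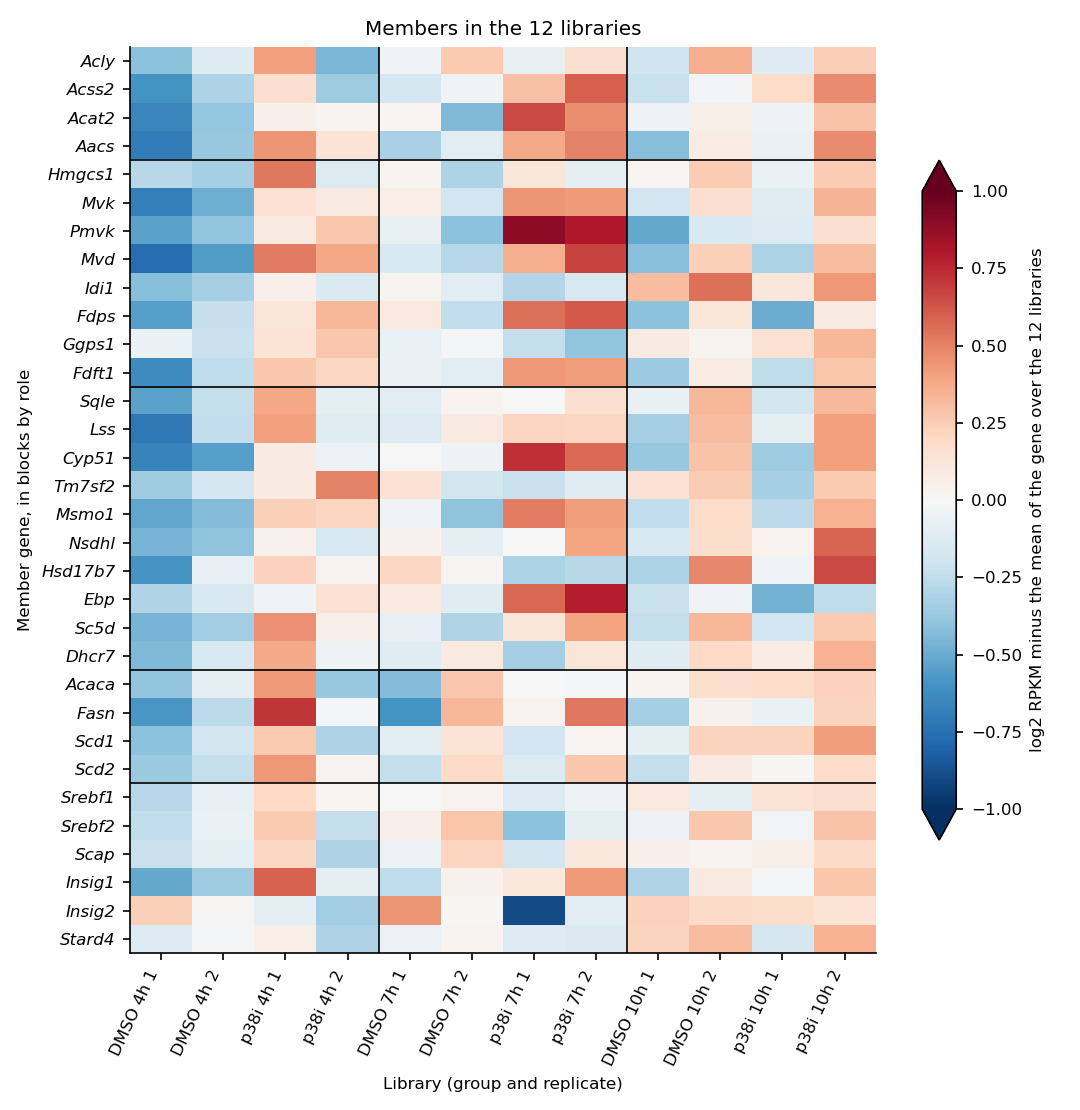
Log2 RPKM of each member (rows, in blocks by role) in each of the 12 libraries (columns), minus the mean of that gene over the 12 libraries. The DMSO 4h libraries are blue (low) in nearly every row, and at 10 h the libraries with replicate number 2 are redder than those with number 1 in both groups.

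The acetyl-CoA block opens the pathway. Acly cleaves citrate to cytosolic acetyl-CoA, Acss2 makes it from acetate, Acat2 joins acetyl-CoA units to acetoacetyl-CoA, and Aacs makes acetoacetyl-CoA from the ketone body acetoacetate. Aacs (chr5:125475814-125517410, GRCm38, plus strand) was measured at 32.4 and 40.6 RPKM in DMSO 4h and at 71.7 and 57.9 in p38i 4h. It stood at 42.0 and 48.8 in DMSO 7h against 68.5 and 74.3 in p38i 7h, and at 39.1 and 55.5 in DMSO 10h against 50.3 and 73.0 in p38i 10h. The groups were apart at 4 and 7 h and overlapped at 10 h. Its log2 fold changes were 0.83 ± 0.20 (SE) at 4 h, which passed, 0.66 ± 0.17 at 7 h and 0.38 ± 0.21 at 10 h.

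Of the rest of the block, Acat2 averaged 41.1 ± 5.40 RPKM in DMSO and 60.4 ± 0.700 in p38i at 4 h, 51.4 ± 11.6 and 86.9 ± 8.12 at 7 h, and 59.0 ± 3.28 and 64.2 ± 10.6 at 10 h. The low Acss2 (3.12 to 7.14 RPKM) had positive log2 fold changes at every time, 0.36, 0.55 and 0.45, with the libraries apart at 7 and 10 h. Acly overlapped between the groups at every time, with log2 fold changes of 0.24, -0.07 and -0.02. At 4 h its p38i libraries read 164 and 89.9 RPKM, on either side of the DMSO libraries at 93.1 and 113. Acss2 overlaps Gss on the opposite strand, and whether reads were counted by strand is not given in the sources used here.

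The mevalonate arm held the 2 largest log2 fold changes of the set, Mvd at 4 h and Pmvk at 7 h. Hmgcs1 makes HMG-CoA, Mvk and Pmvk add phosphates to mevalonate, Mvd decarboxylates the product to isopentenyl diphosphate, Idi1 isomerises it, Fdps and Ggps1 build farnesyl and geranylgeranyl diphosphate, and Fdft1 joins farnesyl units to squalene. Mvd (chr8:122433601-122443422, minus strand) read 51.5 and 59.3 RPKM in DMSO 4h and 126 and 114 in p38i 4h. It read 78.9 and 71.7 in DMSO 7h and 113 and 140 in p38i 7h. At 10 h it read 65.5 and 103 in DMSO and 70.4 and 108 in p38i, so the groups were clear of each other at 4 and 7 h and interleaved at 10 h. The log2 fold change was 1.12 ± 0.20 at 4 h (2.17-fold, passed), 0.74 ± 0.18 at 7 h and 0.09 ± 0.25 at 10 h. Mvd overlaps Gm20388 on the opposite strand.

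Pmvk (chr3:89454541-89469013, plus strand), the kinase of phosphomevalonate, read 96.2 and 106 RPKM in DMSO 4h against 149 and 168 in p38i 4h, then 132 and 105 in DMSO 7h against 260 and 243 in p38i 7h. At 10 h the libraries read 97.8 and 125 in DMSO and 127 and 156 in p38i, apart by less than 2 RPKM between the nearest libraries. Its log2 fold change was 0.64 ± 0.20 at 4 h, 1.09 ± 0.19 at 7 h (2.13-fold, passed) and 0.35 ± 0.14 at 10 h. Pmvk is the shortest member, with a counted length of 1713 bases.

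Length went with the 7 h values. Across the members the log2 fold change at 7 h had a Spearman rho of -0.33 with counted length (n = 32), and across all 10940 genes tested it was -0.46. The 16 shorter members had a median log2 fold change of 0.51 and the 16 longer ones 0.00. At 4 h rho was -0.25 for members and -0.36 for all genes, and at 10 h it was 0.09 and 0.06. With the length trend taken out, Pmvk at 7 h kept a log2 fold change of 0.87 and did not pass. Over all genes 1 of 10940 then passed at 7 h, in place of 233. At 4 h 11 members passed in place of 3, beside 122 of 10781 genes in place of 98. The points share libraries, and the part of length in these values was not tested further.

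Fdps, Fdft1 and Mvk moved side by side with Mvd in their values. Mvk averaged 29.7 ± 2.89 RPKM in DMSO and 48.3 ± 1.26 in p38i at 4 h, and 42.7 ± 5.36 and 60.0 ± 0.253 at 7 h. Fdft1 averaged 40.6 ± 7.48 and 64.4 ± 1.99 at 4 h, and 51.4 ± 1.16 and 73.4 ± 0.678 at 7 h. Fdps averaged 61.4 ± 9.65 and 93.5 ± 9.79 at 4 h, and 76.4 ± 12.9 and 120 ± 3.42 at 7 h. For these 3 genes the libraries did not overlap at 4 or 7 h, none passed, and at 10 h the log2 fold changes were 0.13, 0.15 and -0.06 with overlapping libraries. Fdps lies over Gm43738 on the same strand (104 RPKM), and Fdft1 beside Ctsb on the other strand, so reads could be shared.

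Hmgcs1, with the sterol element core in its promoter, gave 56.6 and 54.6 RPKM in DMSO 4h and 99.0 and 62.5 in p38i 4h, a log2 fold change of 0.50 ± 0.20. Without p38i 4h replicate 1 that value was 0.17. At 7 and 10 h its log2 fold changes were 0.16 and -0.04. Idi1 and Ggps1, the least abundant genes of the arm, changed side between 4 and 7 h: Idi1 had log2 fold changes of 0.33, -0.18 and -0.16, and Ggps1 of 0.35, -0.28 and 0.19, with standard errors up to 0.34. Idi1 rested on 83 to 309 reads per library. Ggps1 overlaps Arid4b on the opposite strand.

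**Figure D3:**
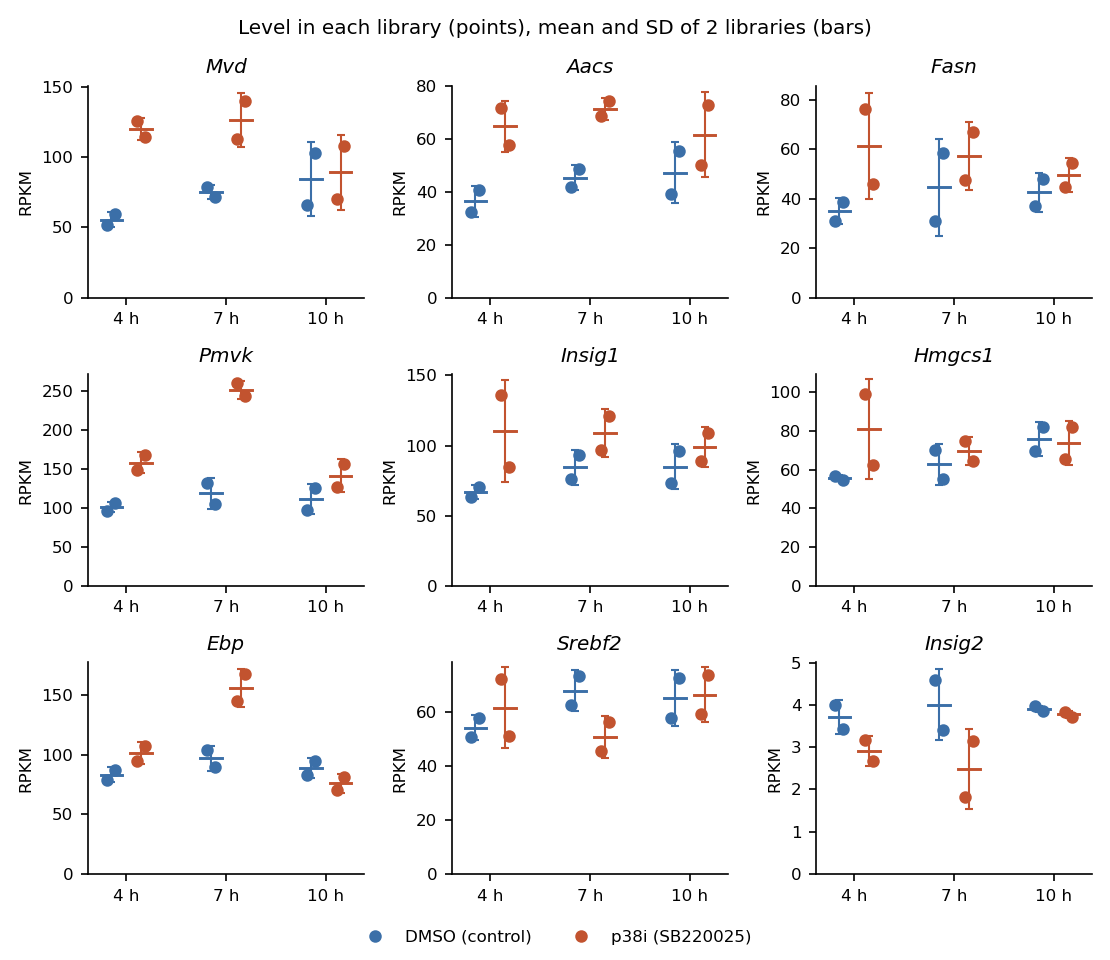
RPKM of 9 members in each library (points; blue DMSO, red p38i) at 4, 7 and 10 h, with the mean (horizontal bar) and SD (vertical bar) of the 2 libraries of a group, each y axis starting at 0. Mvd and Aacs sit apart at 4 and 7 h and overlap at 10 h, Pmvk and Ebp peak in p38i 7h, and Srebf2 and Insig2 are lower in p38i at 7 h, with Insig2 down to 1.82 RPKM in p38i 7h replicate 1.

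Between squalene and cholesterol the 10 genes had log2 fold changes of 0.28 to 0.70 at 4 h, and 0 passed in limma (0.909% of all genes). At an unadjusted p under 0.05 were 7 of them, beside 1016 of all 10781 genes. Sqle oxidises squalene and Lss closes its rings to lanosterol. Sqle averaged 38.8 ± 5.61 RPKM in DMSO and 56.9 ± 13.1 in p38i at 4 h, and Lss 15.6 ± 3.56 and 24.1 ± 6.21. Their log2 fold changes at 4 h were 0.54 and 0.62, and without p38i 4h replicate 1 they were 0.30 and 0.36. Without DMSO 4h replicate 1 that of Lss was 0.39. At 7 and 10 h the log2 fold changes were 0.12 and -0.06 for Sqle and 0.23 and 0.17 for Lss, and the libraries were apart for Lss at 7 h alone.

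Cyp51 and Msmo1 remove the methyl groups of lanosterol, the latter with Nsdhl and Hsd17b7. Cyp51 averaged 33.3 ± 1.88 RPKM in DMSO and 51.3 ± 3.40 in p38i at 4 h, 49.8 ± 1.20 and 79.7 ± 6.33 at 7 h, and 50.5 ± 16.2 and 53.7 ± 19.8 at 10 h. Msmo1 averaged 25.2 ± 1.02 and 40.9 ± 0.570 at 4 h, 30.2 ± 5.35 and 48.2 ± 2.14 at 7 h, and 34.5 ± 7.16 and 36.9 ± 10.9 at 10 h. Both genes were clear of DMSO at 4 and 7 h and overlapped at 10 h. Nsdhl had log2 fold changes of 0.38, 0.22 and 0.30, and Hsd17b7, at 4.85 to 11.5 RPKM, of 0.46, -0.41 and 0.23.

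Of the genes of the last steps Ebp, the sterol isomerase, was the most abundant gene of the block and averaged 83.5 ± 5.95 RPKM in DMSO and 101 ± 9.18 in p38i at 4 h. At 7 h it averaged 97.0 ± 10.4 and 156 ± 16.1, and at 10 h 89.1 ± 8.18 and 76.0 ± 8.28, with the p38i libraries above at 4 and 7 h and below at 10 h. Sc5d, the desaturase, had log2 fold changes of 0.66, 0.45 and -0.01. Dhcr7, which completes cholesterol on one route, had 0.46, -0.09 and 0.17, and the sterol reductase Tm7sf2 had 0.55, -0.15 and -0.24. Tm7sf2 overlaps Vps51 on the same strand (14.6 RPKM).

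In fatty acid synthesis Fasn, the multi-enzyme synthase, was the member that passed. Fasn (chr11:120805846-120824547, minus strand) read 31.2 and 38.8 RPKM in DMSO 4h and 76.4 and 46.1 in p38i 4h. It read 30.8 and 58.6 in DMSO 7h against 47.7 and 67.1 in p38i 7h, and 37.1 and 48.0 in DMSO 10h against 44.6 and 54.4 in p38i 10h. The groups were apart at 4 h alone, and p38i 4h replicate 1 was the highest Fasn value of the 12. The log2 fold change was 0.77 ± 0.20 at 4 h (passed), 0.41 ± 0.30 at 7 h and 0.22 ± 0.14 at 10 h. Without p38i 4h replicate 1 the 4 h value was 0.41 and did not pass, and without p38i 4h replicate 2 it was 1.14.

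Acaca, which makes malonyl-CoA, was measured at 1.44 to 2.63 RPKM and had log2 fold changes of 0.27, 0.07 and 0.11. The desaturases Scd1 and Scd2, closely related paralogs between which short reads can be misassigned, were the most abundant members. Scd2 averaged 151 ± 9.68 RPKM in DMSO and 221 ± 42.8 in p38i at 4 h, with log2 fold changes of 0.54, 0.09 and 0.18 over time and 0.34 at 4 h without p38i 4h replicate 1. Scd1 averaged 147 ± 16.8 and 181 ± 50.1 at 4 h with overlapping libraries, and 190 ± 28.9 and 226 ± 21.8 at 10 h, where its libraries touched without overlapping (210.1 and 210.2 RPKM).

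Among the regulators Insig1, itself an SREBP target, had the largest positive values. It read 63.2 and 70.4 RPKM in DMSO 4h and 136 and 84.7 in p38i 4h. The gene read 75.8 and 93.1 in DMSO 7h against 97.1 and 121 in p38i 7h, and 73.5 and 96.3 in DMSO 10h against 88.9 and 109 in p38i 10h. The groups were apart at 4 and 7 h, with p38i 4h replicate 1 again the highest, and the log2 fold changes were 0.69 ± 0.20, 0.37 ± 0.19 and 0.23 ± 0.15. None passed, and the 4 h value was 0.34 without p38i 4h replicate 1.

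Insig2, the paralog that is not a classical SREBP target, stood on the other side. It read 3.99 and 3.42 RPKM in DMSO 4h and 3.17 and 2.66 in p38i 4h, 4.60 and 3.42 in DMSO 7h and 1.82 and 3.15 in p38i 7h, and 3.96 and 3.86 in DMSO 10h and 3.83 and 3.72 in p38i 10h. Both p38i libraries lay below both DMSO libraries at each of the 3 times. The log2 fold changes were -0.35 ± 0.29, -0.73 ± 0.35 and -0.05 ± 0.12, and none passed. The 71 reads in p38i 7h replicate 1, the shallowest library, were the fewest for any member, and without that library the 7 h value was -0.33.

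Srebf1 and Srebf2 encode the SREBPs and Scap their escort. Srebf2 read 50.8 and 57.5 RPKM in DMSO 4h, 72.0 and 50.9 in p38i 4h, 62.3 and 73.1 in DMSO 7h, 45.3 and 56.2 in p38i 7h, 57.8 and 72.4 in DMSO 10h, and 59.1 and 73.5 in p38i 10h. The groups overlapped at 4 and 10 h, and at 7 h p38i lay below, with a log2 fold change of -0.42 ± 0.19. Srebf1 read 17.8 and 20.6 in DMSO 4h, 24.9 and 22.0 in p38i 4h, 21.6 and 22.3 in DMSO 7h, 19.7 and 20.9 in p38i 7h, 23.3 and 20.4 in DMSO 10h, and 23.8 and 24.2 in p38i 10h. It lay above DMSO at 4 and 10 h and below at 7 h, with log2 fold changes of 0.29, -0.11 and 0.14. Scap read 6.98 and 7.64 in DMSO 4h, 9.37 and 6.58 in p38i 4h, 7.81 and 9.46 in DMSO 7h, 7.17 and 8.77 in p38i 7h, 8.41 and 8.33 in DMSO 10h, and 8.48 and 9.29 in p38i 10h. Its log2 fold changes stayed between -0.12 and 0.10. Stard4, a sterol carrier, had -0.04, -0.12 and -0.18. Srebf1 overlaps Rai1 on the opposite strand.

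Set side by side, the 26 enzyme genes and the 6 regulators differed in count at 7 h. Of the regulators, 1 had a positive value (Insig1), with a median of -0.12, and 4 lay below DMSO. Over all genes at 7 h the median was -0.14, 40.1% were positive and 38.7% lay below DMSO. The medians of the enzyme blocks at 7 h were 0.60 (acetyl-CoA supply), 0.51 (mevalonate to squalene), 0.23 (squalene to cholesterol) and 0.08 (fatty acid synthesis). At 4 h the medians were 0.46, 0.63, 0.55 and 0.41 for the enzyme blocks and 0.13 for the regulators, against 0.07 for all genes. At 10 h every block median lay between 0.06 and 0.25, against -0.02 for all genes. The difference between blocks was not tested.

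**Figure D4:**
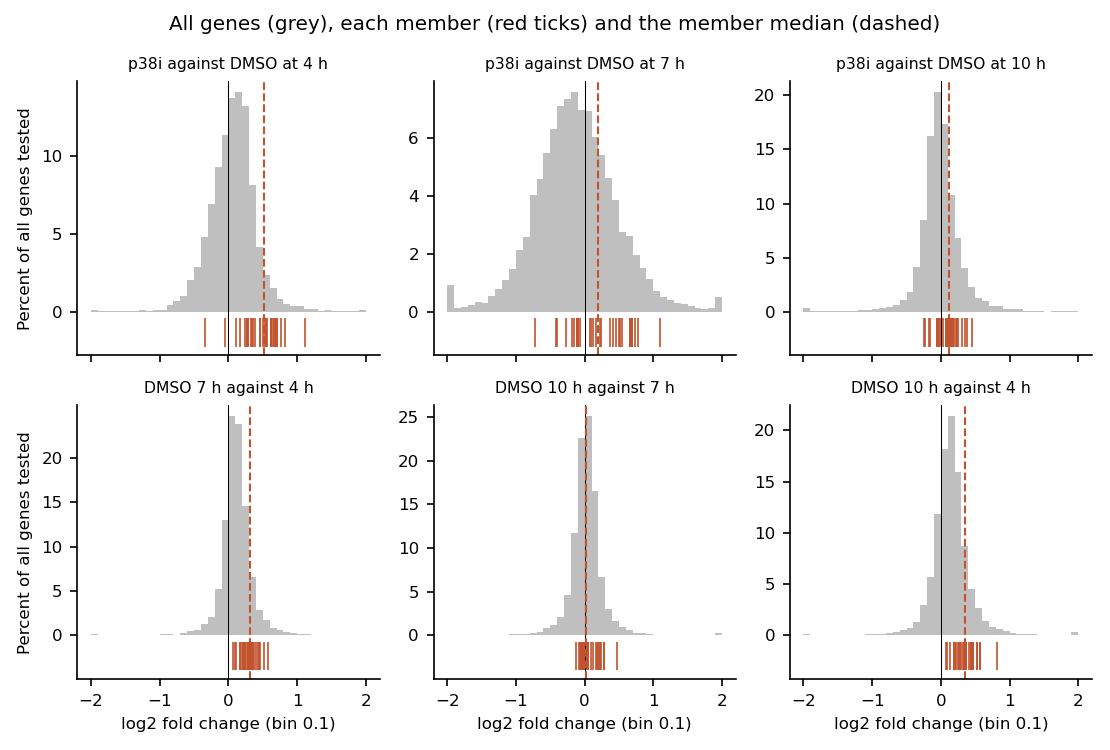
Distribution of the log2 fold change of all genes tested (grey, bins of 0.1, the end bins holding all values beyond) in each of 6 contrasts, with a red tick for each member below the axis and a dashed line at the member median. The member median is 0.52 at 4 h, 0.19 at 7 h and 0.11 at 10 h for p38i over DMSO, and 0.31, 0.02 and 0.35 for DMSO 7 h over 4 h, 10 h over 7 h and 10 h over 4 h.

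In DMSO alone the members were lowest at 4 h. From 4 to 7 h all 32 had a positive log2 fold change (76.6% of all genes), with a median of 0.31 against 0.11 for all genes, and 22 had both later libraries above both earlier ones (25.3% of all genes). Limma called 0 of the 32 beside 0.492% of all genes. At an unadjusted p under 0.05 were 7 members and 516 of 10776 genes, and voom called 0 members and 9 genes. From 7 to 10 h the median was 0.02 (0.02 for all genes), 18 of 32 were positive (55.8% of all genes) and 4 lay above (18.3%). Limma called 0 there too, beside 0.0552% of all genes. At an unadjusted p under 0.05 were 2 members and 412 of 10873 genes, and voom called 0 members and 9 genes. Centring the libraries on their medians left 29 of 32 positive from 4 to 7 h, with a median of 0.21, and without DMSO 4h replicate 1 the median was 0.19 with 31 positive. From 7 to 10 h the median was -0.13 without DMSO 10h replicate 2 and 0.22 without DMSO 10h replicate 1.

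From 4 to 10 h all 32 were again positive (75.7% of all genes), with a median of 0.35 against 0.14 for all genes. Both later libraries lay above in 20 (42.3% of all genes). Limma called 0, beside 0.471% of all genes, with 16 members and 1646 of 10825 genes at an unadjusted p under 0.05. Voom on recovered reads called 14 members and 479 of 10825 genes. The median was 0.21 without DMSO 10h replicate 2, 0.22 without DMSO 4h replicate 1 and 0.52 without DMSO 10h replicate 1. The largest log2 differences were in Idi1 (0.81 ± 0.21), Mvd (0.57 ± 0.18), Mvk (0.57 ± 0.14) and Cyp51 (0.57 ± 0.18). Without DMSO 10h replicate 2 those of Mvd and Cyp51 were 0.25 and 0.23, and without DMSO 10h replicate 1 both were 0.90. The DMSO 4h libraries serve in this contrast and in p38i against DMSO at 4 h, so the values of both depend on the same 2 libraries. Mvd, for example, averaged 55.4 ± 5.55 RPKM in DMSO 4h, 75.3 ± 5.04 in DMSO 7h and 84.3 ± 26.6 in DMSO 10h, beside 120 ± 7.87, 126 ± 19.3 and 89.2 ± 26.7 in the p38i groups.

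The difference of the p38i effect between times was fitted as the interaction of treatment and time. It is built from the p38i contrasts known when the members were chosen, so its member values are also a description. From 4 to 10 h the effect had a lower estimate in 30 of 32 members, with a median difference of -0.45. Of all genes 41.7% had a higher estimate, with a median difference of -0.08. Limma called 0 members and 0% of all genes. At an unadjusted p under 0.05 were 6 members and 1113 of 11288 genes, and voom called 0 of either. The largest was Mvd, with a difference of -1.03 ± 0.32 on the log2 scale. Between 4 and 7 h 0 members passed in limma (0.00884% of all genes). At an unadjusted p under 0.05 were 2 members and 772 of 11311 genes, and voom called 0 of either. Between 7 and 10 h 0 passed (0.00877% of all genes), with 3 members and 2995 of 11400 genes at an unadjusted p under 0.05. Voom called 1 member, Ebp, with a limma estimate of -0.92 ± 0.19, beside 893 of 11400 genes. Under other limma settings the 7 to 10 h difference was called for Ebp alone of the members at 10 RPKM or more, beside 538 of 5397 genes. The replicate block called 2 members, beside 610 of 11400 genes. With 1 library left out, the estimate ranged from -1.03 to -0.81 for Ebp and from 0.28 to 1.07 for Insig2.

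The 2 libraries of a group differed from each other in a way the members shared. At 10 h, 28 of 32 members were higher in DMSO replicate 2 than in replicate 1, and 31 of 32 were higher in p38i replicate 2 than in replicate 1. The median excess was 1.26-fold in both groups, while 49.1% and 51.2% of all genes were higher in replicate 2 and the all-gene medians of the difference were 0.00 and 0.01 on the log2 scale. Among the 41 other genes of lipid metabolism described below, 27 and 24 were higher in replicate 2. The exceptions in DMSO were Ggps1, Srebf1, Scap and Insig2, and the exception in p38i was Insig2. No use of these differences was made in choosing the members.

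At 4 h the p38i libraries differed the other way, with 27 of 32 members higher in replicate 1, a median 0.82-fold level in replicate 2, beside 44.1% of all genes higher in replicate 2. In DMSO 4h 29 of 32 were higher in replicate 2, but so were 83.8% of all genes, and the medians of the difference were 0.19 for members and 0.18 for all genes. At 7 h 16 and 21 of 32 were higher in replicate 2 in DMSO and p38i. The shift at 10 h went the same way with the replicate number in both groups. As the median of log2 RPKM over each gene's mean, the members stood at -0.20 in DMSO and -0.07 in p38i in the libraries numbered 1, and at 0.18 and 0.29 in those numbered 2. The median p38i effect at 10 h was 0.11 over all 4 libraries, -0.06 without DMSO 10h replicate 1, -0.10 without p38i 10h replicate 2, and 0.28 without either of the other libraries. The labels name no batch for these libraries, and what separated the pools was not tested.

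**Figure D5:**
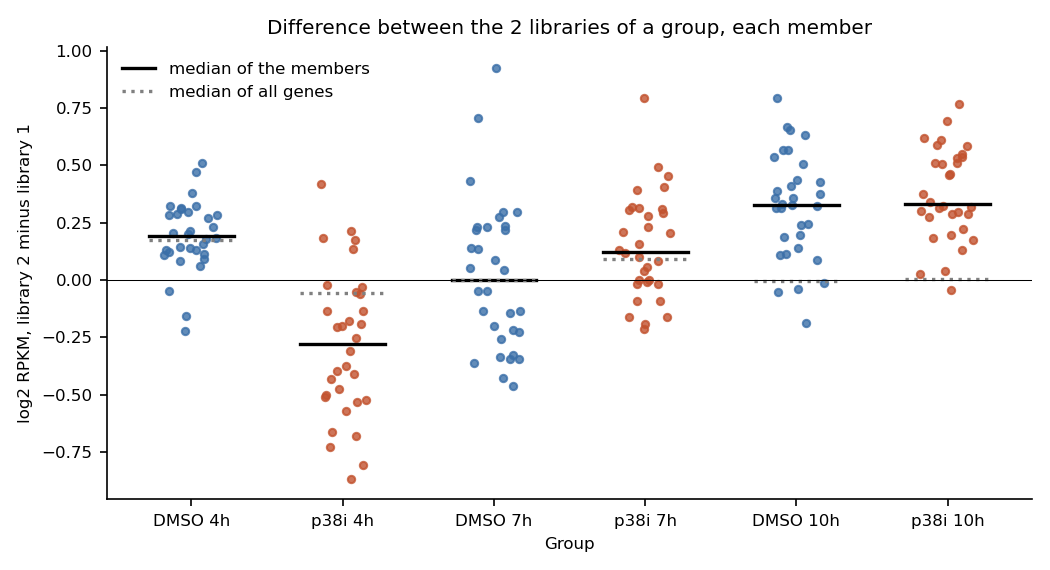
Log2 RPKM in replicate 2 minus replicate 1 for each member (points; blue DMSO, red p38i) in each of the 6 groups, with the median of the members (solid bar) and of all genes (dotted bar). At 10 h the member medians are 0.33 in both groups while the all-gene medians are near 0, and at 4 h the p38i libraries differ by -0.28.

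Other genes of lipid metabolism were taken from a list of 41 written by function, though with earlier results of these data known. They cover SREBP cleavage and INSIG degradation (6 genes), fatty acid elongation, desaturation and activation (15), isoprenoid branches (8), sterol export, storage and transport (10) and other SREBP targets (2). At 4 h 26 of the 40 tested had a positive log2 fold change, with a median of 0.11, against 60.0% and 0.07 for all genes, and 1 rose (0.909% of all genes were called). Lpin1, a phosphatidate phosphatase of glycerolipid synthesis, averaged 2.94 ± 0.289 RPKM in DMSO and 7.78 ± 1.84 in p38i, 1.39 ± 0.26 apart on the log2 scale with both p38i libraries above both DMSO libraries (limma, adjusted p = 7.28e-05). The call was lost without the trend, with median centring, with all 12 libraries in 1 fit and with no filter. Over all genes 11 of 10781 passed without the trend and 0 in each of the other settings. With 1 library left out, its log2 fold change ranged from 1.14 to 1.63. The next in size did not pass: Fads2, a fatty acid desaturase, at 0.73 ± 0.22 (adjusted p = 0.0634) and Rdh11 at 0.69 ± 0.21 (adjusted p = 0.0710). Fads2 stood at 0.33 without DMSO 4h replicate 1 and at 0.48 without p38i 4h replicate 1, and Rdh11 at 0.43 without p38i 4h replicate 1.

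At 7 h 19 of 39 were positive, with a median of -0.03, against 40.1% and -0.14 for all genes. Limma called 0 (2.13% of all genes), with 4 of the list and 3102 of 10940 genes at an unadjusted p under 0.05. Voom called 1 of the list, Npc1, beside 1726 of 10940 genes. Npc1, which exports cholesterol from lysosomes and is named here after its values were seen, averaged 12.5 ± 1.35 RPKM in DMSO and 6.28 ± 1.11 in p38i (-0.997 ± 0.217 on the log2 scale, limma, adjusted p = 0.0504). Its lysosomal partner Npc2 had a log2 fold change of 0.39 ± 0.17 (adjusted p = 0.178), and Erlin2, of INSIG degradation, -0.43 ± 0.18 (adjusted p = 0.165). At 10 h 16 of 40 were positive, with a median of -0.05, against 45.7% and -0.02 for all genes, and 1 fell (0.803% of all genes were called). Hacd3, a dehydratase of fatty acid elongation, averaged 19.3 ± 0.0838 RPKM in DMSO and 13.6 ± 0.516 in p38i (-0.50 ± 0.08, adjusted p = 0.0490), a call lost when any of the 4 libraries was left out. Me1 and Nus1, next in size, had -0.30 ± 0.08 (adjusted p = 0.117) and -0.27 ± 0.07 (adjusted p = 0.104).

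The 4 member calls, like the calls over all genes, were sensitive to how the spread was estimated. At 4 h limma set the spread of every gene to the trend alone, so a gene's own replicates did not weigh, and Fasn passed although its p38i libraries read 76.4 and 46.1 RPKM. Without the trend, with median centring or with all 12 libraries in 1 fit, 0 members passed at 4 h. Of all 10781 genes, 11, 0 and 0 passed in these settings. With 1 library left out, the log2 fold change at 4 h ranged from 1.01 to 1.22 for Mvd, 0.67 to 0.99 for Aacs and 0.41 to 1.14 for Fasn. That of Pmvk at 7 h ranged from 0.93 to 1.26.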

How the data were processed

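Poly(A) RNA of 12 pools of 30 embryos (6 groups of 2) was sequenced by the authors from strand-marking NEBNext libraries. Per the labels, trimming used Trim Galore 0.4.1 and alignment to GRCm38 used HISAT2 2.0.5, and the study's methods add quantification in SeqMonk. The deposited values are log2 of RPKM, normalised by the authors to gene length and library total, for 34245 genes; how SeqMonk treated strand is not given in the sources used here. A gene without a read carries the log2 RPKM of 0.9 read, from which library totals and whole reads were recovered for 34245 genes (100% within 0.02 read).

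Members and gene lists were chosen with earlier results of these data known. Log2 values were fitted with limma 3.58.1 (R 4.3.3; linear model, empirical Bayes with trend), per comparison, for genes of at least 1 RPKM in at least 2 libraries, with Benjamini-Hochberg adjustment over all genes tested and a threshold of 0.05. No count was available as deposited, so limma replaced the authors' DESeq2. With 2 libraries a group, an exact permutation of 1 gene cannot reach that threshold. A self-test of the read recovery on simulated data preceded the fits, and a self-test of limma followed them. The settings changed in turn were the trend (left out), centring on library medians, 1 fit of all 12 libraries, a pseudocount of 1 RPKM, no filter, at least 10 RPKM, a replicate block, removal of the length trend (loess, span 0.5), voom on recovered reads, and leaving out each library.

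Values per library were given for members past the threshold in at least 1 of the 6 contrasts and for Srebf1, Srebf2, Scap, Insig1 and Insig2, and means, ranges and counts for the others. Of the other pathway genes, those past the threshold in a p38i contrast were named, and otherwise the 2 of largest log2 fold change with a mean of at least 10 RPKM.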

Additional observations from a re-analysis of the deposited data

Results flagged for a closer look

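For 5 members the 2 p38i libraries lay above both DMSO libraries at 1 time point and below them at another. The log2 fold changes of p38i over DMSO at 4, 7 and 10 h were 0.33, -0.18 and -0.16 for Idi1, and 0.35, -0.28 and 0.19 for Ggps1. They were 0.46, -0.41 and 0.23 for Hsd17b7. Ebp had 0.28, 0.69 and -0.23, and Srebf1 had 0.29, -0.11 and 0.14. The difference itself was fitted as the interaction of treatment and time, from the same contrasts that flagged these genes, and 0 of the 5 passed in limma. Unadjusted p fell under 0.05 for Hsd17b7 between 4 and 7 h and for Ebp between 7 and 10 h and between 4 and 10 h, with adjusted p of 0.661, 0.0710 and 0.462, and voom called Ebp between 7 and 10 h. In members of 2 against 2 libraries, separation alone is frequent: at 7 h 23.0% of all genes lay above DMSO and 38.7% below. Hsd17b7, Idi1 and Ggps1 are among the less abundant members (4.10 RPKM on average for Ggps1, 2.64 for Idi1 and 7.50 for Hsd17b7).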

How the results depend on the processing

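Over the recomputed values of single genes with a call in some setting, 0 calls turned direction, 583 values stayed on their side of the threshold, 128 passed it and 36 no longer did. The member medians at 10 h and for DMSO 10 h against 7 h were near 0 and took either sign (the latter -0.01 with median centring, -0.13 without DMSO 10h replicate 2 and 0.22 without DMSO 10h replicate 1). Members called at 4 h (3) became 0 without the trend, with median centring, with 12 libraries in 1 fit and with no filter, 5 with a pseudocount of 1 RPKM, 8 with the replicate block and 11 without the length trend. Those at 7 h (1) became 0 without the trend, with median centring, with no filter and without the length trend, 7 with 12 libraries, 8 at 10 RPKM or more, 10 with the replicate block and 9 by voom. Over all genes the calls at 4 h were 115, 75 and 122 of 10781 in the pseudocount, block and length settings. Without the trend they were 11 of 10781, with median centring and with 12 libraries 0 of 10781, and with no filter 0 of 19677. At 7 h they were 2586 of 10940 with 12 libraries and 947 of 5081 at 10 RPKM or more. Without the trend and with median centring they were 0 of 10940, with no filter 0 of 19408, and without the length trend 1 of 10940. The replicate block called 2023 and voom 1726 of 10940 genes at 7 h. Members called at 10 h (0) became 2 with the replicate block, beside 410 of 10959 genes. For DMSO 10 h against 4 h (0) the count was 11 at 10 RPKM or more, 11 with the replicate block and 14 by voom. Over all genes these settings called 276 of 5036, 536 of 10825 and 479 of 10825. For the difference between 7 and 10 h (0) the count was 1 at 10 RPKM or more. It was 2 with the replicate block and 1 by voom. Over all genes the calls were 538 of 5397, 610 of 11400 and 893 of 11400. Other pathway genes called at 4 h (1) became 0 without the trend, with median centring, with 12 libraries, with no filter and at 10 RPKM or more, and 2 without the length trend. At 7 h (0) they became 3 with 12 libraries and 1 with a pseudocount, at 10 RPKM or more, with the replicate block and by voom. At 10 h (1) they became 0 without the trend, with 12 libraries and with no filter, and 3 by voom. Over all genes voom called 523 of 10959 at 10 h, and the pseudocount setting 509 of 10940 at 7 h. At 10 h 9 of 10959 genes passed without the trend, 0 of 10959 with 12 libraries and 0 of 20160 with no filter. At 4 h 36 of 4976 genes passed at 10 RPKM or more. The member median at 7 h (0.19) became 0.39 with median centring and 0.39 at 10 RPKM or more, where fewer genes were tested. The cause of the other shifts was not tested.

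Calls are not counted here for fits that left out 1 library, because a group then holds a single library. Over these fits the member median for p38i against DMSO ranged from 0.35 to 0.65 at 4 h, 0.083 to 0.32 at 7 h and -0.10 to 0.28 at 10 h. In DMSO it ranged from 0.19 to 0.42 for 7 h against 4 h, -0.13 to 0.22 for 10 h against 7 h and 0.21 to 0.52 for 10 h against 4 h. A lone remaining library is assumed to vary like the other group. The calls over all genes also moved with the library left out.

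The replicate numbers are shared between groups, but deviations of same-numbered libraries correlated at 0.00654, 0.166 and 0.119 at 4, 7 and 10 h, so the numbers were not taken as pairs and the replicate block is an alternative alone. Depth limits Insig2 and Idi1 most, with 71 and 83 reads in their poorest library.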

Other observations

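Of the 41 other genes of lipid metabolism, 1 rose over time in DMSO alone, and it is named here after its values were seen. Elovl1, an elongase of long fatty acids, averaged 15.9 ± 0.00765 RPKM in DMSO 4h, 21.3 ± 5.39 in DMSO 7h and 26.2 ± 2.78 in DMSO 10h (n = 2 each). Its log2 difference between 10 and 4 h was 0.72 ± 0.13 (limma, adjusted p = 0.0334), beside 37 of 40 genes of the list with a positive value and a median of 0.20, against 75.7% and 0.14 for all genes, of which 0.471% were called. In p38i it averaged 22.3 ± 1.20, 16.8 ± 0.399 and 26.4 ± 2.47 at 4, 7 and 10 h, and the contrast with DMSO did not pass at any time (limma, adjusted p = 0.379, 0.343 and 0.951). Lpin1, the other pathway gene that passed at 4 h, averaged 4.50 ± 1.82 and 5.02 ± 0.0868 RPKM in DMSO 7h and 10h and 6.96 ± 0.794 and 6.51 ± 1.52 in p38i, with log2 fold changes of 0.69 ± 0.30 and 0.36 ± 0.17 that did not pass (limma, adjusted p = 0.174 and 0.297). The difference of its p38i effect between 4 and 10 h was -1.03 ± 0.30 and did not pass (limma, adjusted p = 0.452).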
